A study of Mus musculus with 4 samples.

Results

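The genes described here are 8 members of the fibroblast growth factor (FGF) system of the mouse, the ligands Fgf7, Fgf9, Fgf10 and Fgf18 and the receptors Fgfr1, Fgfr2, Fgfr3 and Fgfr4. They were chosen by name and without a cut on their values, but with earlier results of these data known. Every non-control probe whose accession maps to a member symbol was taken, which gave 14 probes for these 8 of the 16995 genes with a symbol on the array. Total RNA came from the lung, esophagus, stomach and intestine primordia of ICR mice, an outbred laboratory strain, at E11.5. The labels name no allele, treatment or agent in any group, and how many embryos were pooled for a sample is not given in the sources used here. Each organ was read on 1 array in 1 colour (Cy3). The organ was taken from the titles and tissue labels, while the extraction protocol of every sample speaks of stomach.

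With 1 array per organ the differences have no replicate check, and neither a test nor a p-value can be had. A level is the log2 of the processed signal relative to the 75th percentile of that array, so that 0 stands for a signal equal to that percentile. The error beside a level or a fold is 1 error of the spot as the scanner software reports it. It covers the reading of the array and does not cover how the organs were dissected or their RNA labelled. Where a gene did not rise well above background on an array, its fold is called a bound. The fold is then taken against the gene's own reading or the lowest signal well above background there, whichever is higher. Against the gene's own reading it is not a strict lower limit. Levels of different probes or genes are not set against each other.

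The lung array was dim. Its 75th percentile of signal was 32.0, against 320.2 to 991 on the others, and 39.0% of its spots were well above background, against 67.9% to 74.0%. Its lowest level well above background was −2.39, against −5.75 to −6.92, so low levels could not be resolved in lung. Nkx2-1, a transcription factor of lung and thyroid, stood at 2.47 in lung and −1.10 in esophagus and did not rise well above background in the other organs. Barx1, a stomach mesenchyme factor, was highest in stomach, at 4.49, and next in esophagus, at 0.92. Cdx2, a homeobox factor of intestinal epithelium, stood at 1.90 in intestine and −4.31 in stomach and was not well above background in lung or esophagus. Sox2, a foregut transcription factor, was highest in esophagus, at 1.09, and lowest in intestine, at −2.56.

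FGF ligands are secreted proteins that bind receptor tyrosine kinases together with heparan sulfate, and the activated receptors signal largely through adaptor proteins, Ras and the MAP kinases. In the developing gut tube much of this signalling passes between layers: Fgf10 and Fgf7 are made in mesenchyme and act on the epithelial splice form of Fgfr2, while Fgf9 is made in epithelium and mesothelium and acts back on the mesenchyme. Fgf10 is required for the lung buds to grow out, and it also acts in stomach and intestine. Alternative splicing gives Fgfr1, Fgfr2 and Fgfr3 an epithelial and a mesenchymal form with different ligand preferences, and the array's probe names do not say which form a probe reads.

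Among the ligands, Fgf10 was high in lung and stomach and low in esophagus and intestine, Fgf9 was lowest in esophagus, Fgf18 was highest in lung, and Fgf7 was measured above background in esophagus only. Among the receptors, Fgfr4 was highest in intestine and lowest in esophagus. The brightest probes of Fgfr1, Fgfr2 and Fgfr3 differed by less than 2-fold between every pair of organs. The weaker probes of Fgfr1 and the third probes of Fgfr2 and Fgfr3 placed intestine lower than the brightest probes did. The second probes of Fgfr2 and Fgfr3 did not. In RNA from a whole primordium, fewer cells of a type and less RNA per cell cannot be told apart.

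Fgf9, Fgf10 and Fgfr4 share a level that was lowest in esophagus, and their promoters are shown for that reason. Each is the 250 bases before the start of transcription in RefSeq, build GRCm38.p6, on the plus strand, and capitals mark a match to a searched motif. The Fgf10 window lies at chr13:118714449-118714698, the Fgf9 window at chr14:58072436-58072685 and the Fgfr4 window at chr13:55152568-55152817.
Fgf10: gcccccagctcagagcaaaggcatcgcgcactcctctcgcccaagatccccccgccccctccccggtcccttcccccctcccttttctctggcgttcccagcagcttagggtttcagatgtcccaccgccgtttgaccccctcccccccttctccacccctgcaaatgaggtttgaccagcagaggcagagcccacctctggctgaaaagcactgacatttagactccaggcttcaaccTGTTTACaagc
Fgf9: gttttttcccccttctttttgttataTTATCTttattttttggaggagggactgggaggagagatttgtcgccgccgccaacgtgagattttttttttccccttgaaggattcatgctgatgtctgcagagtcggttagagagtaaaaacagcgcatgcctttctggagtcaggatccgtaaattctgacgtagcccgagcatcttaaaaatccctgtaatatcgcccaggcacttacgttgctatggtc
Fgfr4: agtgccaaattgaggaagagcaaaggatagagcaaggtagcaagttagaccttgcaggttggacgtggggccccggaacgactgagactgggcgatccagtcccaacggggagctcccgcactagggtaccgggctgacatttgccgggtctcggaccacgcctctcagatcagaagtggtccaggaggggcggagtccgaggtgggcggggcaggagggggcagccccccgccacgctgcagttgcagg
Motifs of 4 factor families active in these organs were searched on both strands: GGTGTG for T-box factors, AGATAA for GATA factors, TGTTTAC for forkhead factors and TTTATG for caudal factors. The motifs do not overlap one another in these windows. The Fgf10 window held the forkhead letters, beginning 11 bases before the start, and 3.17% of 32851 promoter windows of that length held them. The Fgf9 window held the GATA letters on the opposite strand, beginning 224 bases before the start, and 9.99% of all windows held them. The Fgfr4 window held none of the motifs. The T-box letters, which 16.3% of all windows held, were in no member window, and the caudal letters, in 10.8% of all windows, were in that of Fgfr2 alone. The table had an entry for 7 of the 8 members, 8 windows in all. A match is a description of letters, and the arrays say nothing of binding there. GC content was 61.2% in the Fgf10 window, 44.8% in that of Fgf9 and 64% in that of Fgfr4, against a median of 52.4% over all windows.

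Fgf10, the mesenchymal ligand of lung budding, was read by 1 probe printed in 10 copies on the array. Its level was 0.49 ± 0.15 in lung, 0.26 ± 0.14 in stomach, −1.07 ± 0.14 in intestine and −1.33 ± 0.15 in esophagus. Lung and stomach were the high organs and esophagus and intestine the low ones. The copies spread little: the SD over copies was 0.078 in lung, 0.075 in both stomach and esophagus and 0.056 in intestine, over 9 or 10 copies not flagged as outliers. No copy in lung or stomach had a level within the range of the copies in esophagus or intestine. Copies share 1 labelled RNA and are not replicates of an organ.

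**Figure D1:**
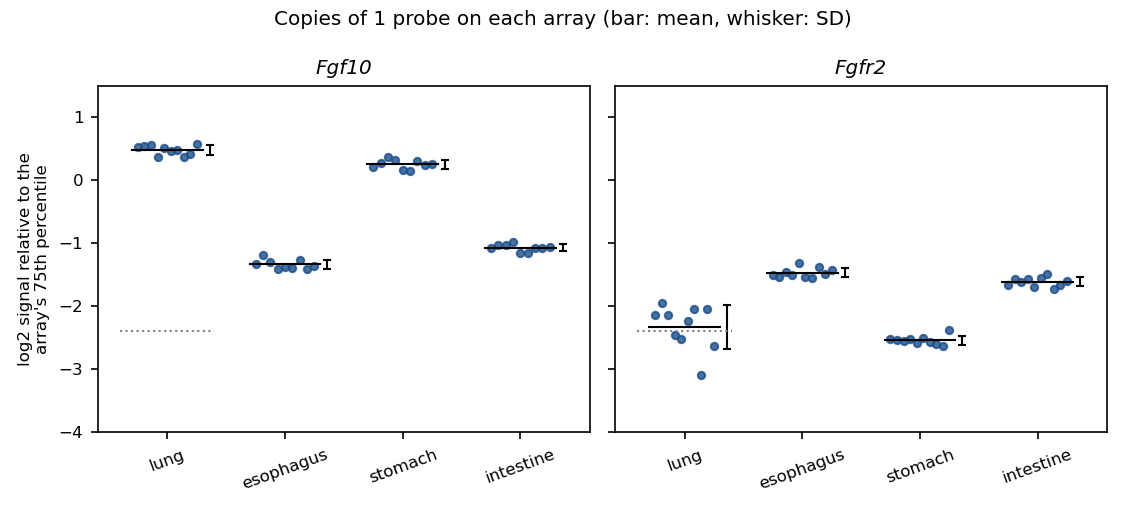
Log2 level relative to the array's 75th percentile for each copy of the 10-copy probes of Fgf10 (left) and Fgfr2 (right) in the 4 organs; points are copies, bars their mean, whiskers the SD over copies, and the dotted line the lowest level well above background in lung. The Fgf10 copies fall near 0.49 in lung and 0.26 in stomach and near −1.33 and −1.07 in esophagus and intestine, while the Fgfr2 copies in lung scatter around the dotted line.

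Lung exceeded esophagus in Fgf10 by 3.52-fold (3.04 to 4.08 within 1 error) and intestine by 2.93-fold (2.53 to 3.39). Stomach exceeded esophagus by 3.01-fold (2.61 to 3.46) and intestine by 2.50-fold (2.17 to 2.88). Within the high organs lung exceeded stomach by 1.17-fold (1.01 to 1.36), and within the low ones intestine exceeded esophagus by 1.20-fold (1.04 to 1.39); both differences lay just outside 1 error. The 4 differences of at least 2-fold stayed at least 2-fold under every processing tried, with log2 values of 1.02 to 2.40. The lung-to-esophagus fold rose to 5.29 when arrays were centred on the median.

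Marker levels of the cell layers are given beside these values, as sums over each list of signals in units of the array's 75th percentile. The 9 mesenchyme markers summed to 188 in intestine, 235 in stomach, 277 in lung and 369 in esophagus, and all but Twist1 in lung were well above background. Esophagus, where Fgf10 was lowest, had the highest mesenchyme sum, in which the brightest genes weigh most. The list was split between lung and esophagus, where 25.6% of all genes were at least 2-fold apart. Of the 9 markers 4 were at least 2-fold higher in esophagus (Col1a2, Foxf1, Twist1 and Dcn) and 2 in lung (Pdgfrb and Col3a1). The 8 epithelium markers, all well above background on every array, summed to 107 in stomach, 53.8 in lung, 53.0 in intestine and 42.1 in esophagus. The part of tissue makeup in the Fgf10 levels was not tested.

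Among 12 genes listed as upstream of Fgf10 in lung and gut, Tbx5, a T-box factor of heart and lung mesenchyme, fell from 3.48 in lung to 2.46 in esophagus and −1.49 in stomach, and in intestine it was not well above background. Wnt2, a signal of lung mesenchyme, stood at 3.61, 1.76, −2.32 and −4.73 in the order lung, esophagus, stomach, intestine, a 324-fold difference between lung and intestine. Neither ran parallel to Fgf10, which was lower in esophagus than in stomach. Isl1, a LIM homeobox factor, was 6.89-fold higher in stomach than in intestine, and for Foxf1, a forkhead factor of gut mesenchyme, stomach exceeded lung by 5.59-fold. Tbx4 was well above background in esophagus alone, at −2.80. Of 12 of these genes compared between esophagus and intestine 8 were at least 2-fold apart, against 20.6% of all genes, 6 higher in esophagus and 2 in intestine, with a median log2 difference of 0.79, against −0.13 over all genes. Between lung and stomach 3 of 10 were higher in lung and 3 in stomach, against 23.9% of all genes apart.

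Fgf9, a ligand of epithelium and mesothelium, had 1 probe. Its level was −0.37 ± 0.18 in lung, −0.65 ± 0.14 in stomach, −0.75 ± 0.14 in intestine and −1.68 ± 0.15 in esophagus. Esophagus stood below the other 3 organs, which lay close together. Lung stood 2.48-fold (2.11 to 2.91), stomach 2.04-fold (1.77 to 2.35) and intestine 1.90-fold (1.65 to 2.19) above esophagus. The stomach difference fell under 2-fold with the 75th percentile taken over bright probes alone, those well above background on each array (1.91) and with normexp background correction (1.64). The intestine difference passed 2-fold under median centring (2.69) and quantile normalization (2.24), and median centring raised the lung fold to 3.72. Lung was above stomach by 1.21-fold and above intestine by 1.31-fold, and stomach and intestine differed by less than 1 error (1.08-fold, 0.93 to 1.24). The 6 mesothelium markers summed to 15.2 in intestine, 13.0 in stomach, 8.16 in lung and 6.82 in esophagus, and all but Msln in lung were well above background. That sum and the epithelium sum were both lowest in esophagus, as Fgf9 was. The brightest genes weigh most in a sum. The median level of the epithelium markers was lowest in intestine, at −0.0043, against 0.66 in esophagus. The part of these cell layers in the Fgf9 level was not tested. Krt19 is in both lists.

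Fgf18, a ligand of lung mesenchyme and skeleton that prefers the mesenchymal receptor forms, had 1 probe. Its level was 0.81 ± 0.15 in lung, 0.24 ± 0.14 in esophagus, −0.23 ± 0.14 in intestine and −0.33 ± 0.14 in stomach. Lung was highest, esophagus next, and stomach and intestine differed by less than 1 error (1.07-fold, 0.93 to 1.24). Lung exceeded stomach by 2.22-fold (1.92 to 2.56) and intestine by 2.06-fold (1.79 to 2.38). Esophagus lay between, 1.48-fold below lung, 1.49-fold above stomach and 1.39-fold above intestine. The lung differences depended on the scaling of the dim array: against stomach the fold was 1.92 with the percentile over bright probes and 1.48 under normexp, and against intestine it was 1.79, 1.43 and, under quantile normalization, 1.98. Median centring raised lung over esophagus to 2.23-fold and turned esophagus against intestine to 1.02-fold higher in intestine. Lung minus esophagus, 0.57 on the log2 scale, fell to 0.27 with the percentile over bright probes and to 0.07 under normexp.

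Fgf7, a mesenchymal ligand of the epithelial form of Fgfr2, had 1 probe. It was well above background in esophagus alone, at a level of −4.42 ± 0.22. The readings of −3.89 in lung, −6.38 in stomach and −6.57 in intestine were not, and had errors of 1.28, 0.65 and 0.35. Esophagus was at least 2.57-fold higher than stomach. Against intestine the fold was 4.44, taken against the intestine reading itself, with an error of 0.41 on the log2 scale, so it is not a lower limit. No fold against lung is given, because the esophagus level lies below the lowest level the lung array resolves. The bound against stomach fell to 1.86 under quantile normalization and 1.03 under normexp, and with no floor the measured values gave 3.89-fold. The fold against intestine fell to 2.47 and 2.45 under quantile normalization and normexp. The esophagus array also held the highest sums of mesenchyme markers, above, and of heart muscle markers, at 110 (7 of 7 well above background) against 8.42 in lung, 1.81 in stomach and 0.95 in intestine. Limb and skeletal muscle markers summed to 35.7 there (4 of 5 well above background) and to 3.33, 2.03 and 3.13 in lung, stomach and intestine. Their part in the esophagus values of any member was not tested.

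**Figure D2:**
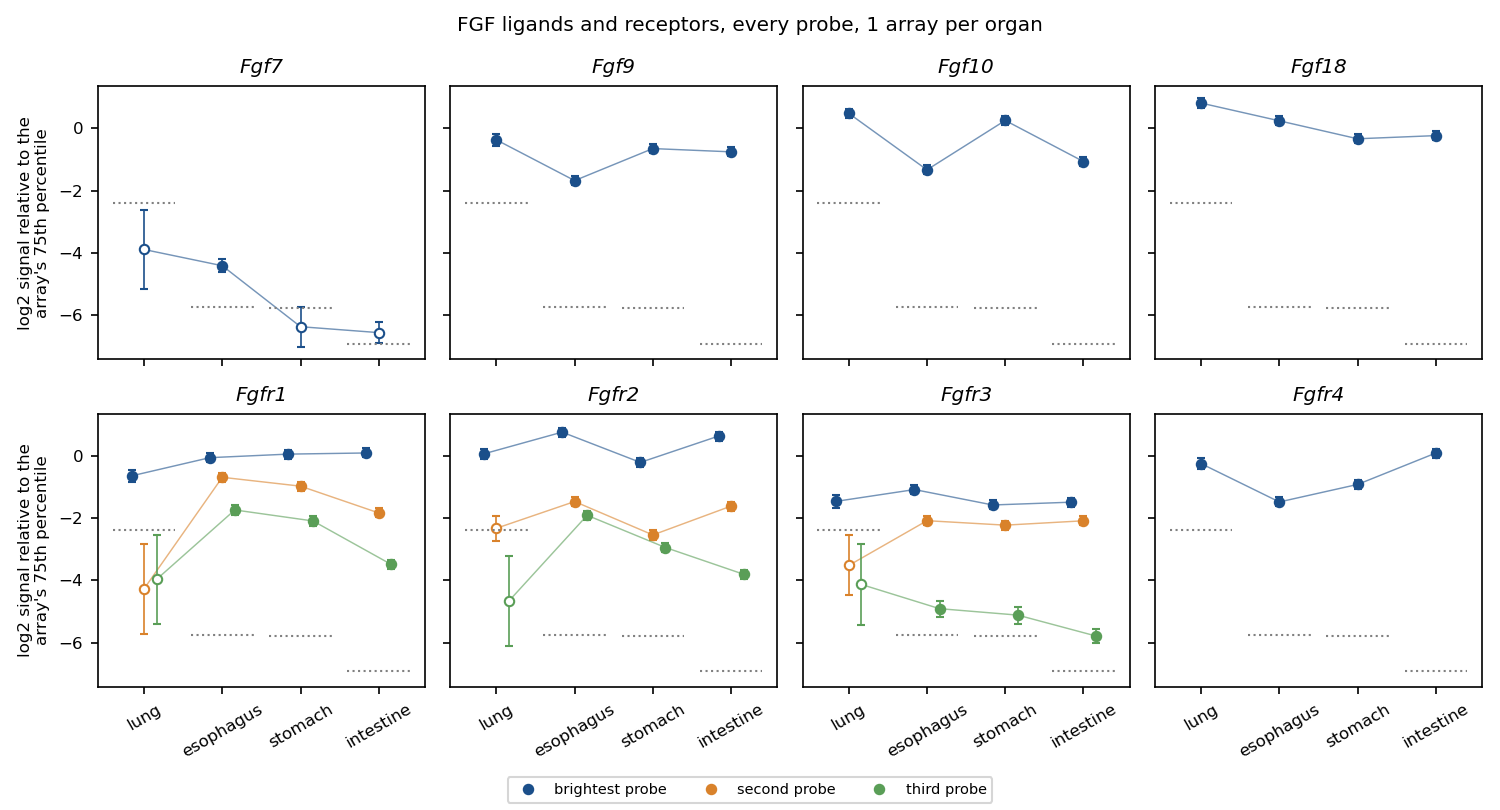
Log2 level of each probe of the 8 genes on the 4 arrays (y axis, relative to the array's 75th percentile; 1 array per organ); filled points were well above background, open points were not, whiskers are 1 scanner error and dotted lines the lowest level well above background on each array. Fgf10 stands high in lung and stomach, Fgf9, Fgf10 and Fgfr4 are lowest in esophagus, and probes of Fgfr1 and of Fgfr2 differ in where they place intestine.

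Among the receptors Fgfr4 had 1 probe. It binds only some of its ligands with the coreceptor beta-Klotho and is known for its roles in liver and endoderm. Its level was 0.095 ± 0.14 in intestine, −0.24 ± 0.17 in lung, −0.91 ± 0.14 in stomach and −1.48 ± 0.15 in esophagus. The organs ran intestine, lung, stomach, esophagus from high to low, and each neighbour in that order differed by more than 1 error. Intestine exceeded esophagus by 2.97-fold (2.58 to 3.43) and stomach by 2.01-fold (1.75 to 2.32), and lung exceeded esophagus by 2.35-fold (2.01 to 2.74). Intestine exceeded lung by 1.27-fold, lung exceeded stomach by 1.59-fold and stomach exceeded esophagus by 1.48-fold. The order held under every processing tried. Normexp brought intestine over stomach to 1.75-fold, the percentile over bright probes brought lung over esophagus to 1.90-fold, and median centring gave 3.53-fold for lung over esophagus and 2.08-fold for lung over stomach.

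Klb, which encodes beta-Klotho, stood at −1.95 in intestine and −5.46 in esophagus, an 11.4-fold difference, and was not well above background in lung or stomach. Intestine was thus high for the receptor and, against esophagus and stomach, for its coreceptor. Against lung, whose array resolved no level below −2.39, no Klb difference of at least 2-fold was counted. Liver markers were also highest there. Their sums were 61.9, 26.3, 9.90 and 3.29 for intestine, lung, esophagus and stomach, with 6, 4, 5 and 5 of the 6 on the array well above background. Albumin, Alb, stood at 2.98, 1.98, −0.36 and −2.39 in that order, highest in intestine like Fgfr4 but lowest in stomach, where Fgfr4 was above its esophagus level. The part of liver RNA in the Fgfr4 and Klb levels was not tested.

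Fgfr2, the receptor of Fgf10 and Fgf7 in epithelium, had 3 probes. By the brightest its level was 0.77 ± 0.14 in esophagus, 0.64 ± 0.14 in intestine, 0.07 ± 0.15 in lung and −0.21 ± 0.14 in stomach. Esophagus and intestine were high and differed by less than 1 error (1.09-fold, 0.95 to 1.26). Esophagus exceeded stomach by 1.96-fold (1.70 to 2.26) and lung by 1.62-fold (1.40 to 1.88). Intestine exceeded stomach by 1.80-fold (1.56 to 2.07) and lung by 1.49-fold (1.28 to 1.72). Stomach, high in Fgf10, was thus the organ lowest in Fgfr2 by this probe, 1.21-fold below lung (1.05 to 1.40). Esophagus over stomach passed 2-fold with the percentile over bright probes (2.10), quantile normalization (2.01) and the mean of all probes (2.04), and intestine over stomach did so under median centring (2.22). Esophagus over lung was 1.08-fold under median centring and passed 2-fold narrowly with the percentile over bright probes. Median centring turned esophagus against intestine to 1.30-fold higher in intestine.

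The second Fgfr2 probe, printed in 10 copies, stood at −1.46 in esophagus, −1.61 in intestine and −2.54 in stomach, and in lung 3 of its 10 copies were well above background. It repeated the pattern of the brightest probe, with esophagus 2.11-fold above stomach (1.82 to 2.43) and intestine 1.90-fold above stomach (1.65 to 2.20). The third probe was −1.91 for esophagus, −2.94 for stomach and −3.80 for intestine and was not well above background in lung. It gave the same 2.05-fold difference between esophagus and stomach, but placed intestine 1.82-fold below stomach (1.57 to 2.10) and 3.72-fold below esophagus (3.22 to 4.30). The low stomach level relative to esophagus was therefore shared by all 3 probes, and the position of intestine was not.

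Fgfr1, the receptor prominent in mesenchyme, had 3 probes too. By the brightest its level was 0.10 ± 0.14 in intestine, 0.06 ± 0.14 in stomach, −0.05 ± 0.14 in esophagus and −0.64 ± 0.20 in lung. Lung was low and the other organs did not differ beyond 1 error (at most 1.11-fold). Esophagus stood 1.50-fold (1.27 to 1.78), stomach 1.62-fold (1.37 to 1.92) and intestine 1.67-fold (1.41 to 1.97) above lung. Under normexp stomach and intestine each stood 1.02-fold above lung, and esophagus turned to 1.01-fold below it. Median centring left lung and esophagus level. The second probe stood at −1.83 in intestine, −0.97 in stomach and −0.68 in esophagus, and the third at −3.49, −2.09 and −1.73. Neither was well above background in lung. By them esophagus exceeded intestine by 2.21-fold (1.92 to 2.55) and 3.37-fold (2.91 to 3.90), and stomach exceeded intestine by 1.82-fold and 2.64-fold. The second probe put esophagus at least 3.27-fold and stomach at least 2.68-fold above lung. With the mean of all probes esophagus and stomach stood 1.89-fold and 1.67-fold above intestine. The 3 probes thus placed lung lowest or unmeasured, and differed on intestine.

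Fgfr3, a receptor known for its role in growing cartilage, had 3 probes. By the brightest its level was −1.08 ± 0.14 in esophagus, −1.46 ± 0.21 in lung, −1.48 ± 0.14 in intestine and −1.57 ± 0.15 in stomach. Esophagus was highest, 1.41-fold above stomach (1.22 to 1.63), 1.33-fold above intestine and 1.30-fold above lung. Lung, stomach and intestine did not differ from one another beyond 1 error. Median centring and normexp turned the difference between lung and esophagus to 1.15-fold and 1.28-fold higher in lung, and normexp put lung 1.72-fold above intestine. Median centring also turned esophagus against intestine to 1.07-fold higher in intestine, which left lung and intestine above esophagus. The second probe, at −2.08, −2.22 and −2.08 in esophagus, stomach and intestine, gave no difference beyond 1 error among these organs. The third, at −4.91, −5.12 and −5.79, put esophagus 1.84-fold (1.45 to 2.33) and stomach 1.59-fold (1.25 to 2.03) above intestine. Neither was well above background in lung.

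Probes of a gene differ in this way across the array. The difference between a further probe and the brightest probe of the same gene had an SD on the log2 scale of 0.51 for esophagus minus stomach, 0.76 for stomach minus intestine and 1.05 for esophagus minus intestine. For the lung pairs the SDs ran from 0.94 to 1.23. The third Fgfr2 probe departed from the brightest by 1.77 on the log2 scale for esophagus against intestine, and those of Fgfr1 by 1.30 and 1.90. Fgf7, Fgf9, Fgf10, Fgf18 and Fgfr4 had 1 probe each, so their patterns could not be checked with another.

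Set side by side by their brightest probes, the 8 genes gave 44 differences between organs, of which 13 were at least 2-fold. These were 10 of 20 among the ligands and 3 of 24 among the receptors, the latter all of Fgfr4. The Fgf7 differences among the 10 are bounds. Over all genes the share at least 2-fold apart was 9.90% to 25.6% by pair of organs. The receptor count depends on the probe, since weaker probes of Fgfr1 and Fgfr2 passed 2-fold in some pairs, as given above. With the mean of all probes 5 differences were gained, all of Fgfr1 or Fgfr2, partly through lung readings not well above background. Between lung and esophagus 3 of 7 members were at least 2-fold apart (Fgf9, Fgf10 and Fgfr4, all higher in lung), against 25.6% of all genes compared. Lung and stomach differed in 1 of 7 (Fgf18), against 23.9% of all genes, and lung and intestine in 2 of 7 (Fgf10 and Fgf18), against 20.6%. Esophagus and stomach differed in 3 of 8 (Fgf7 higher in esophagus, Fgf9 and Fgf10 higher in stomach), against 9.90% of all genes. Esophagus and intestine differed in 2 of 8 (Fgf7 and Fgfr4), against 20.6%, and stomach and intestine in 2 of 7 (Fgf10 and Fgfr4), against 12.4%. With so few members no share can be called particular to them, and the pairs of organs share arrays.

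The median log2 difference over the members was 0.57 for lung minus esophagus, against 0.28 over all genes, 0.28 against 0.12 for lung minus stomach and 0.03 against 0.14 for lung minus intestine. It was 0.19 against −0.16 for esophagus minus stomach, −0.01 against −0.13 for esophagus minus intestine and −0.09 against 0.03 for stomach minus intestine. All 6 lung differences of at least 2-fold were higher in lung. That split became 3 higher and 1 lower with the percentile over bright probes and 6 higher and 4 lower with the mean of all probes, the 4 being Fgfr1 against each organ and Fgfr2 against esophagus, means that include lung readings not well above background. For esophagus against stomach 1 was higher and 2 lower, which changed to 2 and 1 with the percentile over bright probes, 0 and 1 under normexp and 2 and 2 with the mean of all probes. For esophagus against intestine the split was 1 to 1, and it was 1 to 2 with median centring or quantile normalization. For stomach against intestine it was 1 to 1, with median centring 1 to 2 and with normexp 1 to 0. Median centring moved the median of all genes by 0.63 for lung minus esophagus, 0.41 for lung minus stomach and −0.49 for esophagus minus intestine, and normexp moved those of the lung pairs by −0.48, −0.42 and −0.56.

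**Figure D3:**
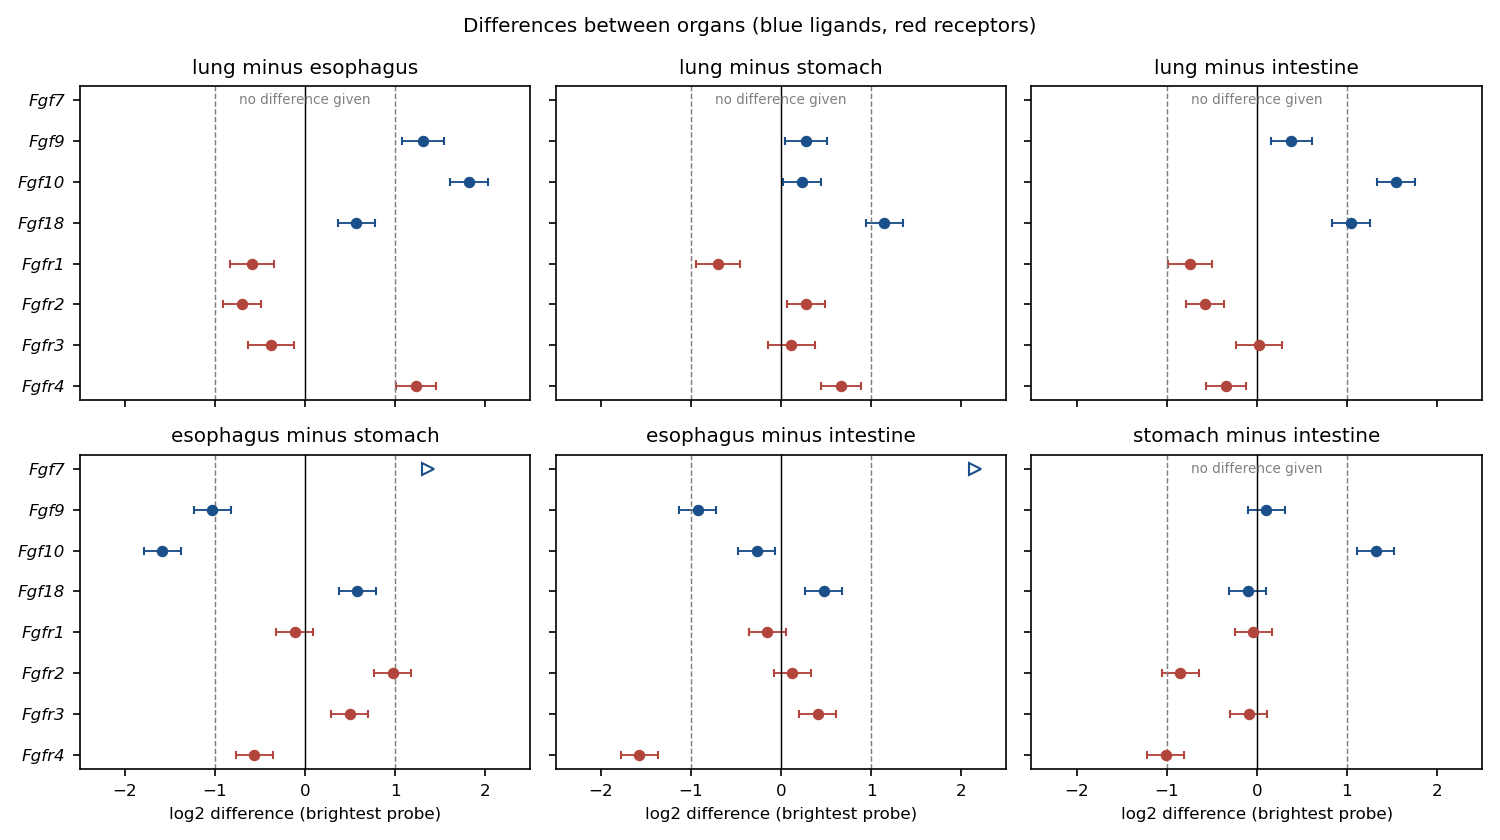
Log2 difference between each pair of organs (x axis, first minus second as titled) for the 8 genes, ligands in blue and receptors in red. Whiskers are 1 scanner error, open triangles are bounds, and dashed lines mark 2-fold. The Fgf7 bound for esophagus minus intestine is taken against the intestine reading itself. Lung minus esophagus holds Fgf9, Fgf10 and Fgfr4 beyond the line, and Fgf10 passes it in 4 of the 6 panels.

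The further secreted FGF ligands were mostly not well above background. Of 14 listed, 13 were on the array, and 2, 4, 5 and 6 of them were well above background in lung, esophagus, stomach and intestine. Fgf5 stood at 0.0022 in lung, −0.48 in stomach, −1.25 in intestine and −1.44 in esophagus, with lung 2.72-fold above esophagus. Fgf8 fell from −2.15 in lung through −3.16 in esophagus and −3.65 in stomach to −4.46 in intestine, with lung 4.98-fold above intestine and close to the lowest level the lung array resolves. Fgf2 was 4.30-fold and Fgf15 2.57-fold higher in esophagus than in intestine. Of 4 of these ligands compared between esophagus and intestine 3 were at least 2-fold higher in esophagus, with a median of 1.33, against 20.6% of all genes apart. Under median centring and quantile normalization it was 1 of 5, with medians of 0.80 and 0.65. Of 5 compared between esophagus and stomach 0 were 2-fold apart, against 9.90% of all genes. Among the intracellular FGF homologous factors, which are not secreted and do not act through these receptors, Fgf13 was 2.19-fold higher in stomach than esophagus and Fgf12 2.03-fold higher in stomach than intestine, while Fgf11 differed by 1.21-fold at most between organs where it was measured.

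Of 18 listed coreceptors and binding proteins 17 were on the array. Between esophagus and stomach 1 of 16 compared was 2-fold apart (Flrt2, higher in esophagus), against 9.90% of all genes. Between esophagus and intestine 4 of 16 were higher in esophagus and 2, Klb and the adhesion molecule Ncam1, in intestine, against 20.6% of all genes apart, with a median of 0.07 against −0.13 over all genes. Ncam1 was 4.71-fold higher in intestine than in lung, Gpc4, a heparan sulfate proteoglycan, 4.27-fold higher in esophagus than in intestine, and Flrt1 4.67-fold higher in stomach than in intestine. Of 16 genes of heparan sulfate synthesis and editing, the 3-O-sulfotransferase Hs3st3b1 stood at 2.13 in stomach, 1.29 in esophagus and −2.91 in intestine and was not well above background in lung, a 33.0-fold difference between stomach and intestine. Its relative Hs3st3a1 differed by 20.8-fold between the same organs. Sulf1, which removes sulfate groups from heparan sulfate, was 7.37-fold higher in esophagus than in intestine, and Ugdh, which makes a sugar precursor of heparan sulfate, 2.87-fold higher in lung than in esophagus. Between esophagus and intestine 4 of the 16 were 2-fold apart, all higher in esophagus, against 20.6% of all genes, and the list median was 0.05 against −0.13. Between esophagus and stomach 1 of the 16 was 2-fold apart, against 9.90%.

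Of the genes whose proteins carry the signal inside the cell, 0 of 23 were 2-fold apart between esophagus and stomach, against 9.90% of all genes, and the median was −0.07 against −0.16. Between esophagus and intestine 4 of 23 were higher in esophagus and 2 in intestine, against 20.6% of all genes apart. Pik3r1, a regulatory subunit of phosphoinositide 3-kinase, was 7.75-fold higher in stomach than in lung. The MAP kinase kinase Map2k1 was 3.53-fold higher in intestine than in esophagus, and the Ras protein Nras was 3.24-fold higher in lung than in esophagus. Between lung and esophagus 3 of 22 were higher in lung and 3 in esophagus, against 25.6% of all genes apart. The count of those higher in lung to those higher in esophagus was 6 to 1 under median centring, 3 to 7 with the percentile over bright probes, 1 to 5 with the mean of all probes and 0 to 8 under normexp.

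Genes that FGF signalling is known to induce, among them feedback inhibitors, were set beside all genes. Their median in esophagus minus stomach lay below that of all genes under each setting. In esophagus minus intestine it did so under each but normexp, where it was 0.27. The medians over all genes were themselves below 0 in both pairs under each setting. Of 14 compared between esophagus and stomach 0 were at least 2-fold higher in esophagus and 4 were higher in stomach (Spred3, Etv1, Etv4 and Il17rd), with a median of −0.85, against −0.16 over all genes, of which 9.90% were apart. Between esophagus and intestine 2 of 14 were higher in esophagus (Spred1 and Etv5) and 5 in intestine, against 20.6% of all genes apart. The median was −0.68, against −0.13 over all genes, and the split was 3 to 3 with the percentile over bright probes. Between lung and esophagus 3 of 9 were higher in lung (Spry1, Etv4 and Il17rd) and 2 in esophagus (Spred1 and Egr1), with a median of 0.86 against 0.28 and with 25.6% of all genes apart, and this split was 6 to 1 under median centring and 1 to 2 with the percentile over bright probes. Between stomach and intestine 3 of 14 were higher in stomach and 0 in intestine, with a median of 0.15, against 12.4% of all genes apart. Lung and stomach differed in 2 of 10 of these genes, both higher in stomach, against 23.9% of all genes. The count higher in lung to that higher in stomach was 1 to 0 under median centring and 0 to 3 with the percentile over bright probes. It was 1 to 2 under normexp and with the mean of all probes.

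Etv4, an ETS factor induced by FGF, stood at 0.05 in lung, −0.14 in intestine, −0.39 in stomach and −2.14 in esophagus, with lung 4.57-fold above esophagus. Esophagus was thus the low organ for Etv4, as for Fgf9 and Fgf10, but intestine, low in Fgf10, was not low in Etv4. Its relative Etv5 ran otherwise, at −0.81, −1.02, −1.51 and −2.87 for lung, esophagus, stomach and intestine, with lung 4.18-fold above intestine. Dusp6, a phosphatase of the MAP kinases, stood at 3.75 in intestine, 3.69 in stomach, 3.58 in lung and 2.72 in esophagus, with intestine 2.04-fold above esophagus. Spry2, a feedback inhibitor, stood at −2.30 in intestine, −2.33 in stomach and −2.92 in esophagus and was not well above background in lung. Spred1, also an inhibitor of Ras signalling, was 4.72-fold higher in esophagus than in intestine, and for Etv1 stomach exceeded esophagus by 2.71-fold.

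Genes whose pattern over the 4 arrays lay nearest to a member were ranked by the root mean square difference of their centred log2 values among 10935 genes. Values below −2.39, the lowest level the lung array resolved, were first raised to it, so differences below that level do not count. Over only 4 arrays many genes share a pattern, so these are descriptions. Nearest to Fgf10 was another ligand, Fgf5, at a distance of 0.25, followed by the homeobox gene Hoxb5 at 0.35 and the Ras inhibitor Spred2 at 0.37. Fgf5 was the only gene within 0.3 of Fgf10, which is 0.0091% of the genes compared. Within the same distance of Fgf9 lay 10.1% of genes, of Fgf18 12.5% and of Fgfr4 3.37%. Nearest to Fgf9 were Spry1 (0.058), a feedback inhibitor of FGF signalling, Rcan2 (0.089) and Gstp1 (0.091). Nearest to Fgf18 were Grb14 (0.022), Nid2 (0.038) and Dnajb4 (0.043), and nearest to Fgfr4 were Otud6b (0.054), Cyth3 (0.0698) and Raph1 (0.079). Fgf7, which had no span left after that step, was not compared with the other members. Among those the closest patterns were those of Fgfr2 and Fgfr3, at 0.29, and of Fgfr1 and Fgfr3, at 0.35. The farthest apart were Fgf10 and Fgfr2, at 1.18.

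**Figure D4:**
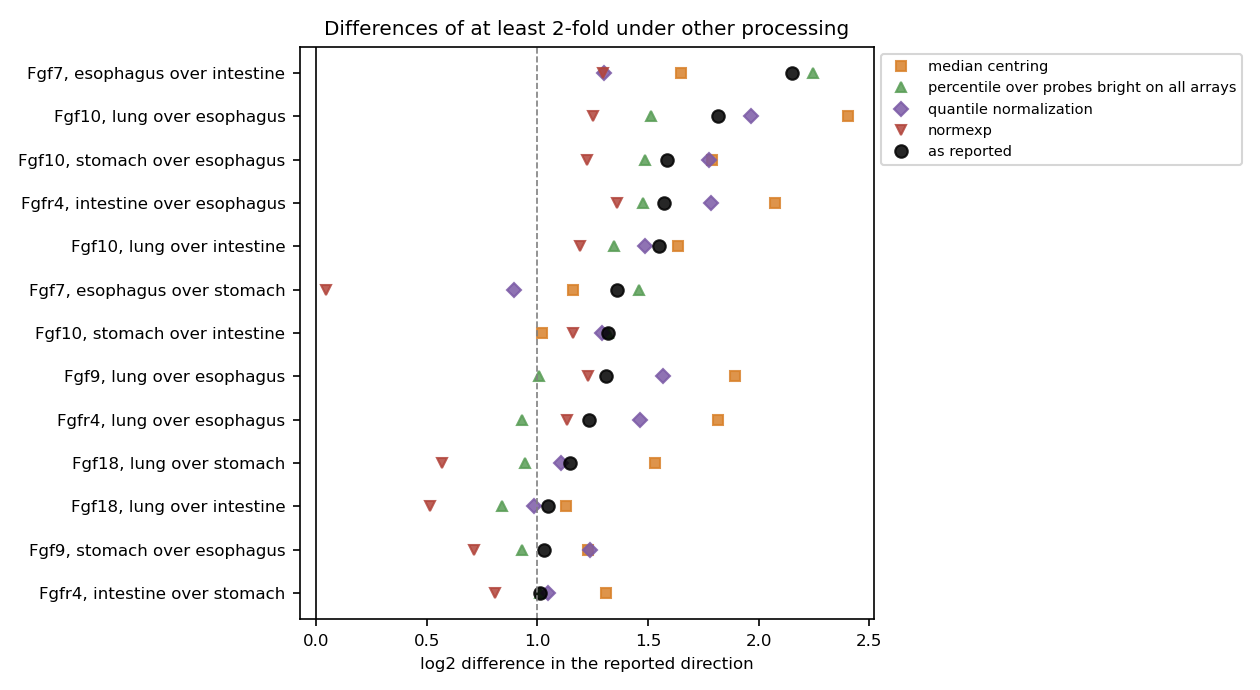
Log2 difference of the 13 member comparisons of at least 2-fold (x axis, in the reported direction) as reported and under 4 other ways of scaling or background correction; the dashed line marks 2-fold. The 4 Fgf10 comparisons stay right of the line under each setting drawn, while Fgf18 in lung, Fgf9 between stomach and esophagus, Fgf7 against stomach, and Fgfr4 between lung and esophagus and between intestine and stomach cross it.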

How the data were processed

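Per the labels' protocols, total RNA of each organ primordium was isolated with a micro column kit, labelled with Cy3 by low-input amplification and hybridised in 1 colour. Per the file headers, the deposited scanner files hold intensity values read with Agilent Feature Extraction 10.5.1.1 on array design 014868. The processed signal in them has the background subtracted array by array, with no scaling across arrays. The series table the authors deposited gives log2 values whose scale, centring and direction are known from a match to the scanner values alone (r of 0.99996 to 0.99998 by array). Its column medians were −3.56, −2.97, −3.17 and −3.47 for lung, esophagus, stomach and intestine.

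Levels are log2 of the processed signal after subtracting the array's 75th percentile of non-control probes, with outlier-flagged spots left out and copies of a probe averaged. A probe in copies was taken as well above background where more than 50% of its copies were. A gene was read by its brightest probe over the 4 arrays, and every member probe is given. Of 41105 probes kept, 24338 were given 1 symbol through their unversioned accession in the GRCm38.p6 RefSeq table, which was used for names and promoter sequences. No array coordinates are given, since the design refers to another build. A difference was counted at 2-fold. Spots of members were never saturated, and the number of arrays limits the precision.

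The members and lists were chosen with earlier results of these data known. In each list up to 4 genes were named, those of largest difference between organs where both were well above background, with 4 response genes added. A gene that this rule names is not reported here. Up to 3 genes of nearest pattern were named for each member spanning at least 2-fold once values were raised to the lung limit. Other members, clone names and olfactory receptor genes (Olfr) were left out. Marker genes were named where they bear on a member's value. Spry1, the genes listed in brackets beside a count and Tbx4 are named beyond that rule, after their values were seen.

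Alternatives were centring on the median, the same percentile over bright probes (those well above background on each array), quantile normalization, normexp background correction with an offset of 50, the series table, the mean of all probes of a gene, no floor, and pairs well above background on both arrays. Normexp used the median spot signal, as the mean signal column was not used here. The calculations were tested on simulated data and used Python 3.11.15, numpy 2.4.6, pandas 2.3.3, R 4.3.3 and limma 3.58.1.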

Additional observations from a re-analysis of the deposited data

How the results depend on the processing

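Of the 13 member differences of at least 2-fold, 13 kept that size and direction with the series table, with no floor, under median centring and with the mean of all probes, 11 under quantile normalization, 9 with the percentile over bright probes and 8 under normexp; none of those that kept a value reversed. Restricting to pairs well above background on both arrays left 11, since the 2 bounds of Fgf7 then had no value. The count of lung differences rose from 6 to 10 with the mean of all probes, where dim probes of Fgfr1 and Fgfr2 that were not well above background in lung enter the mean. The count among esophagus, stomach and intestine fell from 7 to 4 under normexp; the cause was not tested. Of 44 single differences, 29 moved by more than the scanner error under median centring and 7 with the percentile over bright probes. Both settings shift every gene of a pair of organs by the same amount, so these counts reflect the pairs and not single genes. The count was 20 under normexp, 12 with the mean of all probes, 8 under quantile normalization, and 0 with the series table or no floor. The dim lung array limits what can be said of low genes there: Fgf7 and the weaker probes of Fgfr1, Fgfr2 and Fgfr3 had no measured lung level. No paired analysis was possible because each organ had 1 array and the labels give no replicate number. No array could be left out without losing its organ.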
